A study of Mus musculus with 4 samples.

Results

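Tetraspanins are small membrane proteins that hold other surface proteins, such as integrins, immunoglobulin-family receptors and proteases, together in patches of the membrane. The expression of 10 mouse tetraspanin genes, Cd53, Cd37, Cd9, Cd63, Cd81, Cd82, Cd151, Tspan13, Tspan32 and Tspan33, was described in blood stem cells sorted from bone marrow, among 24016 gene symbols in all. The genes were listed by name with earlier NHD13 and WT values of these data in view, and Cd53 and Cd37 headed the list because they had been found higher in NHD13. For a gene with several transcripts, the one with most counts summed over the 4 libraries was used. Because the genes were selected on the comparison described here, their fold changes are given as a description. Where the fit over all genes called one of them, that is recorded as a count and supports nothing, since the same values chose the list.

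The NHD13 group had 2 libraries, from C57BL/6 mice at 4 months of age that carry a NUP98-HOXD13 fusion transgene, a model of myelodysplastic syndrome. In the published line the transgene is driven by Vav regulatory sequences, active across blood cells. The WT group had 2 libraries, from wild-type C57BL/6 mice of the same age. Every library came from cells sorted as lineage-, CD34-, Flt3-, Sca-1+, CD150+ and c-Kit+. The labels do not say whether libraries came from separate or pooled animals, so p-values and standard deviations measure only the spread between these libraries, which may be technical.

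Total counts over genes were 35025974 and 48423689 in NHD13 and 42664018 and 37070939 in WT. The partner gene of the transgene, Hoxd13, had 65 and 78 counts in NHD13 and 14 and 3 in WT. All 8 stem cell markers that were listed were detected in every library, with summed levels of 2109 and 2574 CPM (counts scaled to the library total) in NHD13 and 3440 and 3573 CPM in WT, and 1 of them, Hlf, was called lower in NHD13. Between libraries of a group the spread was above counting error: the chi-square of a gene's counts, on 1 degree of freedom, averaged 59 in NHD13 and 34.6 in WT.

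As background, tetraspanins differ in where they act. Cd53 and Cd37 are largely restricted to white blood cells. Cd9, Cd81 and Cd151 sit at the surface of many cell types and bind integrins or immunoglobulin-family proteins, while Cd63 cycles through late endosomes, lysosomes and secreted exosomes. Cd82, first known as a metastasis suppressor, has been linked in mice to the quiescence of long-term stem cells.

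Promoter sequences are shown for the genes that were highest in NHD13 relative to WT, Cd53 and Cd37, and for Cd63, Cd81 and Cd82, which were lower there. They come from RefSeq on build GRCm38.p6 and run from 250 bases before to 50 bases after a transcript start. The count files use the older build mm9, so these coordinates do not refer to it. All 10 genes matched, with 14 windows, since Cd82 has 4 annotated starts and Cd151 has 2. Capitals mark GAGGAAGT, a motif bound by the myeloid and lymphoid factor PU.1, and GGGCGG, the GC box bound by Sp1-type factors, each on either strand (as ACTTCCTC or CCGCCC on the opposite strand). The motifs were chosen with the sequences in view. Of the 4 Cd82 windows, window 3 is printed because it holds GAGGAAGT; windows 1 and 2 hold GGGCGG, and window 4 neither motif.
Cd53 (chr3:106790100-106790399, minus strand): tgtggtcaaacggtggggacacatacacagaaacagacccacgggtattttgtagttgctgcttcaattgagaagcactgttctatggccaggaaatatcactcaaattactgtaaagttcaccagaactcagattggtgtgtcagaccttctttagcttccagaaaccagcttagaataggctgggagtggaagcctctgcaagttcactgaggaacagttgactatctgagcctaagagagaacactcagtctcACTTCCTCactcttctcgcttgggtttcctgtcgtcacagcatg
Cd37 (chr7:45238790-45239089, minus strand): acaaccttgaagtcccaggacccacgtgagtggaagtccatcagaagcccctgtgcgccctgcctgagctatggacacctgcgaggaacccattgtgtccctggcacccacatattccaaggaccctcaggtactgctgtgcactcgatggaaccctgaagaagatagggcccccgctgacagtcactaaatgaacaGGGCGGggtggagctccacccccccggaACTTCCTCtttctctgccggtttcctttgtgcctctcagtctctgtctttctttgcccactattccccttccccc
Cd82, window 3 (chr2:93461802-93462101, minus strand): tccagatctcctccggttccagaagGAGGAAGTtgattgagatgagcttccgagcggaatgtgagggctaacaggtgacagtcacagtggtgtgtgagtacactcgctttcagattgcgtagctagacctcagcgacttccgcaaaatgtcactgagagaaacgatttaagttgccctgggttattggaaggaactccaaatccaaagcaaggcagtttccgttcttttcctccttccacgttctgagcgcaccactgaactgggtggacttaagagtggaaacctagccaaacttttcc
Cd63 (chr10:128909095-128909394, plus strand): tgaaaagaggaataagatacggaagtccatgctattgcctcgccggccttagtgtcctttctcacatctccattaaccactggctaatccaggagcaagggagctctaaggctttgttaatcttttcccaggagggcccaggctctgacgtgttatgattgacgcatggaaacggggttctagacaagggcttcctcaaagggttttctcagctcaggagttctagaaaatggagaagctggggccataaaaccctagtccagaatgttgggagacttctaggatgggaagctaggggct
Cd81 (chr7:143052500-143052799, plus strand): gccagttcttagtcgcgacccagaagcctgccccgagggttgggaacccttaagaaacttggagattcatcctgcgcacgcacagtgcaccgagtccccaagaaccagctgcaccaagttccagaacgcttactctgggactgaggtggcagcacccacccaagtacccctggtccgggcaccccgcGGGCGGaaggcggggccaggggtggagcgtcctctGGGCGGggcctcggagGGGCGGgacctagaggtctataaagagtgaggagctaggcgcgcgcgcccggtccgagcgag

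GAGGAAGT lay in 3 of the 14 windows, those of Cd53 and Cd37 and window 3 of Cd82, against 3.20 percent of all 32851 windows of the same length. In Cd53 it began 7 bases into the transcript, and in Cd37 it began 25 bases before the start, on the opposite strand in each. In the Cd82 window it began 225 bases before the start. The shorter core GAGGAA, which every such match also contains, was in windows of 5 genes (Cd53, Cd37, Cd63, Cd82 and Tspan32) and in 28.3 percent of all windows. GGGCGG was in windows of 7 genes and in 35.7 percent of all windows. It occurred 3 times in the Cd81 window and was not found on either strand of the Cd53 and Cd63 windows. These matches describe letters in a window and say nothing of binding in these cells.

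In NHD13 cells the leukocyte tetraspanins Cd53 and Cd37 were several-fold higher than in WT cells. Cd63, Cd82, Cd81 and Cd9 were lower in NHD13, with the smallest differences in Cd9 and Cd81 and the greatest in Cd82, where the WT mean was 2.25 times the NHD13 mean. Cd151, Tspan13 and Tspan32 overlapped between the groups. The scarce Tspan33 was lower in NHD13. The library totals behind CPM were TMM-normalised, a trimmed-mean correction for library makeup. A gene was called where edgeR's quasi-likelihood test over all 14853 genes that passed the filter on low counts gave a Benjamini-Hochberg adjusted p under 0.05. All 10 genes passed that filter, and 3 were called, Cd53 and Cd37 higher and Cd63 lower in NHD13. Over all genes tested 4.28 percent were called, 2.07 percent higher and 2.22 percent lower, and because the list was made knowing this comparison nothing is read from its count. The median log2 fold change was -0.19 over the 10 genes and 0 over all genes tested. In bulk RNA a larger share of cells that express a gene and more RNA per cell cannot be told apart.

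**Figure D1:**
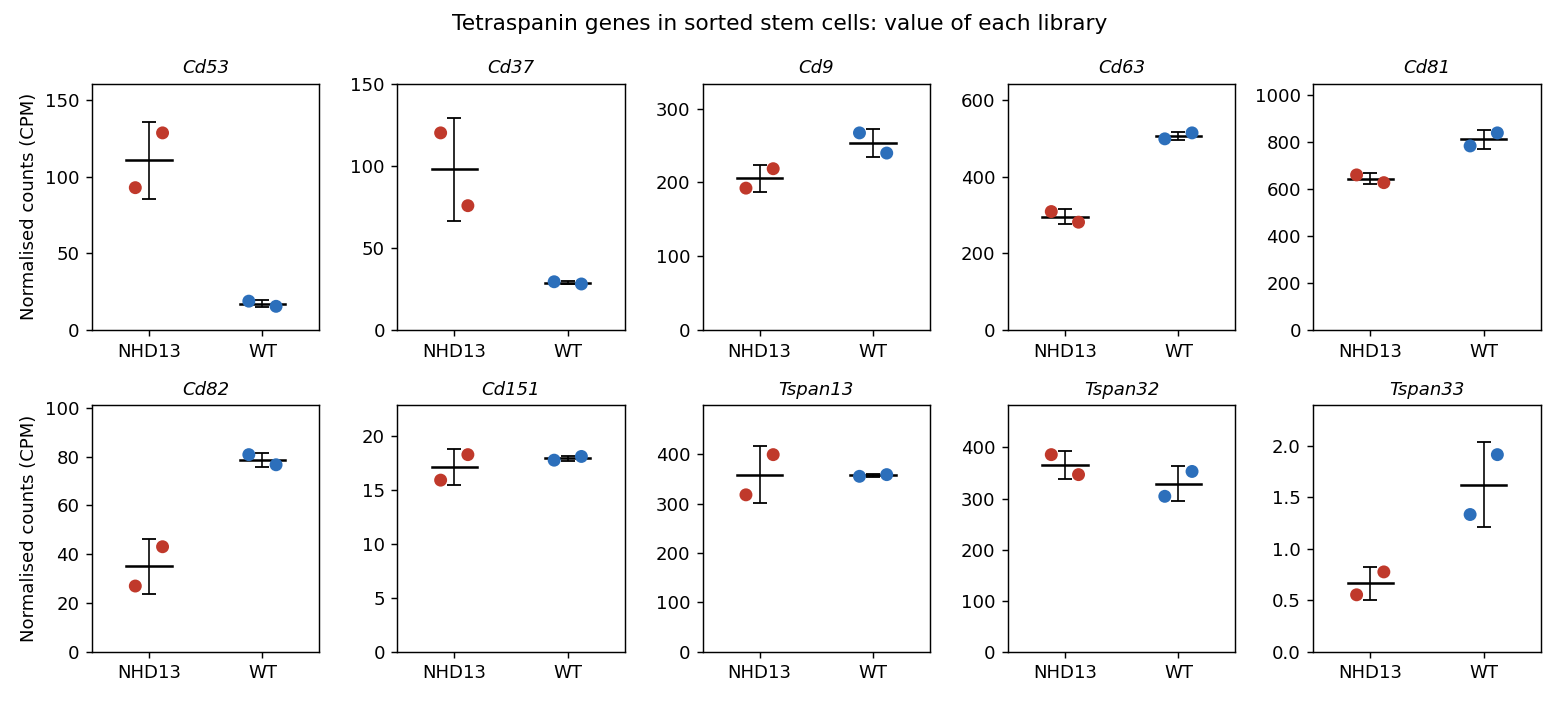
Normalised counts (CPM, linear axes from 0) of the 10 tetraspanin genes, with NHD13 on the left and WT on the right of each panel. Points are libraries, library 1 left of library 2, and black lines are the mean and SD (n = 2); Cd53 stands at 92.7 and 128 CPM in NHD13 against 18.7 and 15.4 CPM in WT.

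Cd53 encodes a tetraspanin found across leukocytes, which in mice is needed for normal levels of the homing receptor L-selectin on lymphocytes. It had 3186 and 6293 counts in NHD13 against 815 and 562 in WT, or 92.7 and 128 CPM in NHD13 against 18.7 and 15.4 CPM in WT. Both NHD13 libraries were well above both WT libraries, and NHD13 library 2 was the highest. The mean was 111 ± 25.2 CPM in NHD13 and 17.1 ± 2.37 CPM in WT (SD, n = 2 each), a ratio of 6.48 and a log2 fold change of 2.70 ± 0.21 (SE).

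Cd37, which is most abundant on mature B cells, had 4131 and 3715 counts in NHD13 against 1278 and 1024 in WT. That is 120.2 and 75.8 CPM in NHD13 against 29.4 and 28.0 CPM in WT. The groups did not overlap, and the NHD13 libraries differed from each other far more than the WT libraries did. The mean was 98.0 ± 31.4 CPM in NHD13 and 28.7 ± 0.960 CPM in WT (SD, n = 2 each), a ratio of 3.41 and a log2 fold change of 1.77 ± 0.24 (SE). Its 3 transcripts had nearly the same counts, at most 3.83 percent apart in any library, so the counts do not separate them. On build GRCm38 its exons overlap those of Tead2 on the opposite strand, and strand handling of the counting is not given in the sources used here. Tead2 was at 3.61 and 7.73 CPM in NHD13 and 16.9 and 12.8 CPM in WT, so it stood lower in NHD13 where Cd37 stood higher.

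Cd53 and Cd37 peaked in different NHD13 libraries. The ratio of Cd53 to Cd37, each in CPM, was 0.771 and 1.69 in NHD13 libraries 1 and 2 and 0.638 and 0.549 in WT. Some markers of other blood cells also stood higher in NHD13. Of 10 granulocyte and monocyte markers 9 were in the tables. None was at 0 in any library, and 7 were above WT in both NHD13 libraries, as were 4477 of all 14853 genes tested. The summed level of the 9 markers was 3682 and 1059 CPM in NHD13 and 382 and 309 CPM in WT. The high library for this sum was NHD13 library 1, as for Cd37 but not for Cd53. Its markers differed in how far the NHD13 libraries stood apart. In NHD13 libraries 1 and 2 Ngp was at 915 and 132 CPM and S100a8 at 640 and 80.1 CPM, while Mpo was at 709 and 587 CPM. Of 7 macrophage marker names 6 were in the tables (Adgre1 under its older name Emr1). Their sums were 59.6 and 39.7 CPM in NHD13 and 14.3 and 15.5 CPM in WT. Cd68, called higher, was at 35.5 and 31.8 CPM in NHD13 and 10.5 and 10.6 CPM in WT. Emr1 and Csf1r were also above WT in both NHD13 libraries. C1qa and C1qb overlapped between the groups, and Marco was at 0 in NHD13 library 1 and in both WT libraries. The 8 T and NK cell markers summed to 157 and 182 CPM in NHD13 and 24.6 and 21.9 CPM in WT. Nkg7, called higher, made up most of it in NHD13 library 1, at 153 CPM, and stood at 82.2 CPM in NHD13 library 2. Cd3e, Cd3g and Gzmb were high in NHD13 library 2 alone, at 36.3, 30.8 and 30.3 CPM there and 0.728, 1.02 and 0.873 CPM in NHD13 library 1. Cd3d and Cd2 overlapped between the groups, and Cd4 was at 1.37 and 1.69 CPM in NHD13 and 2.51 and 1.81 CPM in WT. Cd8a was at 0 in NHD13 library 1 and WT library 2.

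The 7 B cell markers, which bear on Cd37, summed to 89.7 and 97.2 CPM in NHD13 and 74.3 and 80.8 CPM in WT. Most of the sum was Cd79b, and Cd79a was called higher in NHD13. Pax5 was at 0 in both WT libraries and Cd22 in WT library 2. The part of other cell types in the Cd53 and Cd37 values was not tested.

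Cd63, the endosome and exosome tetraspanin, had 309 and 281 CPM in NHD13 against 499 and 514 CPM in WT. Both NHD13 libraries were below both WT libraries, and libraries of a group were close. The mean was 295 ± 19.6 CPM in NHD13 and 506 ± 10.98 CPM in WT (SD, n = 2 each), a log2 fold change of -0.78 ± 0.09 (SE). Its 3 transcripts differed by at most 0.132 percent in any library.

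Cd82 had 26.9 and 43.0 CPM in NHD13 against 80.8 and 76.7 CPM in WT. Both NHD13 libraries were below WT, but they differed from each other by 1.60-fold. The log2 fold change was -1.17 ± 0.24 (SE), larger than that of Cd63 but with a larger error, and Cd82 was not called. It was called lower by DESeq2, and by edgeR with no filter on low counts, with a filter at 1 CPM, and without NHD13 library 2. Of the 8 stem cell markers, 4 were likewise below WT in both NHD13 libraries, as were 4499 of all 14853 genes tested. Whether the lower Cd63 and Cd82 values go with the lower markers was not tested.

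The surface tetraspanins Cd81 and Cd9 showed smaller differences. Cd81, found on many cell types, B cells included, had 659 and 626 CPM in NHD13 against 782 and 837 CPM in WT, with no overlap. Its log2 fold change was -0.33 ± 0.09 (SE). Exons of Cd81 overlap those of R74862 on the opposite strand. R74862 was at 84.2 and 75.8 CPM in NHD13 and 97.8 and 103 CPM in WT, lower in NHD13 as Cd81 was, and reads of the pair cannot be told apart without strand.

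Cd9, abundant on megakaryocytes and platelets and present on mouse stem cells, had 192 and 219 CPM in NHD13 against 267 and 239.7 CPM in WT. Its groups did not overlap, but the gap between them was smaller than the gap between the libraries of either group, and the log2 fold change was -0.30 ± 0.11 (SE). The 6 megakaryocyte and platelet markers, none at 0 in any library, summed to 295 and 216 CPM in NHD13 and 228 and 188 CPM in WT. These sums overlapped between the groups. Single markers differed in direction. Gp9 was called lower in NHD13, at 21.3 and 24.3 CPM against 44.8 and 49.5 CPM in WT, while Pf4 was at 90.5 and 112 CPM in NHD13 and 57.2 and 30.8 CPM in WT. The part of these cells in the Cd9 values was not tested. On GRCm38 Cd9 exons overlap those of the opposite-strand gene Gm26728, and Cd151 exons those of Gm10575; neither was analysed here.

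Cd151, the partner of laminin-binding integrins, was alike in all libraries, at 15.9 and 18.3 CPM in NHD13 and 17.8 and 18.1 CPM in WT. Tspan13 had 318 and 399.5 CPM in NHD13 and 356 and 359 CPM in WT, so the WT values lay between those of NHD13. Tspan32, a blood cell tetraspanin also called Phemx or Tssc6, had 386 and 347 CPM in NHD13 and 304 and 353 CPM in WT. The groups overlapped for all 3 genes, with log2 fold changes of -0.07 ± 0.15 for Cd151, 0.01 ± 0.13 for Tspan13 and 0.16 ± 0.12 for Tspan32 (SE).

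Tspan33, which binds the protease Adam10 and is known in mice from erythroblasts, had few reads, with 19 and 38 counts in NHD13 against 58 and 70 in WT, or 0.553 and 0.776 CPM in NHD13 against 1.33 and 1.92 CPM in WT. The groups did not overlap, with a log2 fold change of -1.28 ± 0.49 (SE). The 6 erythroid markers, none at 0 in any library, summed to 181 and 276 CPM in NHD13 and 201 and 199.6 CPM in WT. Counting all 10 genes, 7 had groups that did not overlap, 2 higher and 5 lower in NHD13. The same was true of 60.4 percent of all genes tested in either direction, so a lack of overlap between pairs of libraries is common here.

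Levels were compared between genes after division by transcript length, taken from the GENCODE transcript paired with the counted RefSeq record. In NHD13 cells Cd81 led at 419 ± 15.2 CPM per kilobase, followed by Cd63 at 277 ± 18.5. Then came Tspan32 at 195 ± 14.7, Tspan13 at 186 ± 29.8 and Cd9 at 167 ± 15.2 (SD, n = 2). Tspan13 overlapped both of its neighbours. Cd37 at 77.3 ± 24.8 and Cd53 at 63.5 ± 14.5 overlapped each other and stood above Cd82 at 19.2 ± 6.25, Cd151 at 9.17 ± 0.897 and Tspan33 at 0.333 ± 0.0789 CPM per kilobase.

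In WT cells the order again began with Cd81 at 528 ± 25.6 and Cd63 at 476 ± 10.3 CPM per kilobase. Cd9 at 206 ± 15.7, Tspan13 at 185 ± 1.26 and Tspan32 at 175 ± 18.4 came next, the last pair overlapping. Cd82 at 43.2 ± 1.61 stood above Cd37 at 22.6 ± 0.757, Cd53 at 9.79 ± 1.36 and Cd151 at 9.62 ± 0.131, the last pair overlapping, and Tspan33 was again last at 0.815 ± 0.206 CPM per kilobase (SD, n = 2). Cd53 and Cd37 thus ranked above Cd82 in NHD13 and below it in WT.

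Summed over the 10 genes, the level was 1419 and 1410 CPM per kilobase in NHD13 and 1631 and 1683 in WT. Cd53 and Cd37 together made up 10.4 and 9.47 percent of that sum in NHD13 libraries, against 2.08 and 1.84 percent in WT libraries. Cd63 and Cd81 together made up 50.8 and 47.7 percent in NHD13 and 60.0 and 61.2 percent in WT.

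**Figure D2:**
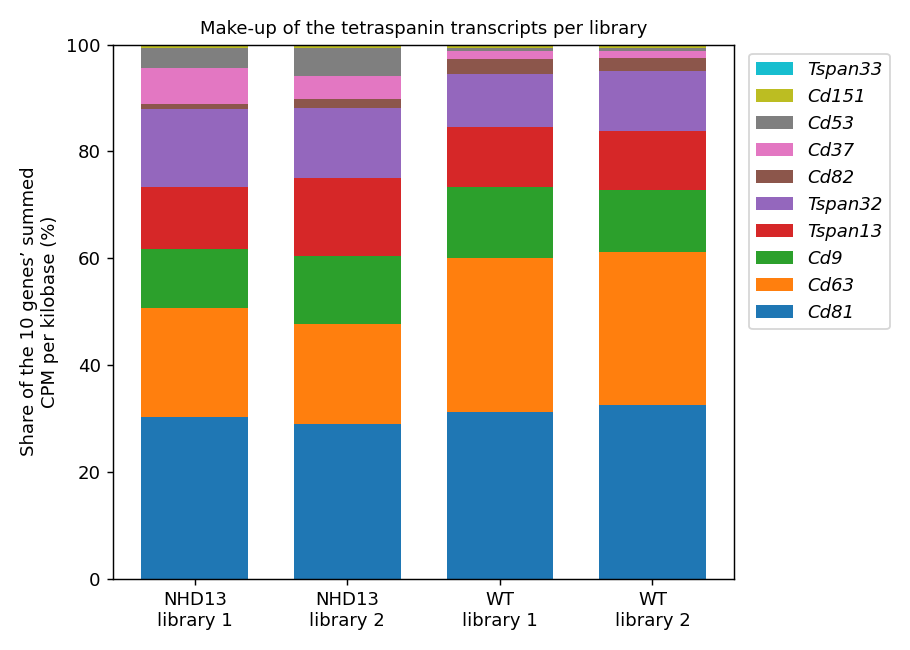
Share (percent) of the summed CPM per kilobase of the 10 tetraspanin genes that each gene held, 1 bar per library, NHD13 libraries left of WT libraries. The Cd37 and Cd53 segments together are 10.4 and 9.47 percent in NHD13 and 2.08 and 1.84 percent in WT.

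The other tetraspanin genes, listed by family and not by how they moved, were tested in the same fit. This list and the partner and endosome lists below were made with earlier results of these data known. Of 23 listed genes 21 were in the tables and 16 passed the filter on low counts. Of the 16, 1 was called, against 4.28 percent of all genes tested, so nothing is read from that count. Tspan2, best known from oligodendrocytes, was the 1 gene called, higher in NHD13 at 15.7 and 13.6 CPM against 6.28 and 4.95 CPM in WT (log2 fold change 1.38 ± 0.23, edgeR adjusted p 0.0466). It lost the call with library totals in place of TMM, and without NHD13 library 1 or 2 or WT library 1 or 2. With the default filter edgeR called no gene of the list lower on all 4 libraries. Of the 16 genes 12 had a log2 fold change below 0, against 7407 of the 14853 genes tested, and 6 had an unadjusted p under 0.05, against 3983 of all genes tested. DESeq2 called 5 of the list lower and Tspan2 higher, among 2606 called of the 20806 genes it was run on, and limma-voom called Tspan2 alone. The median log2 fold change of the 16 was -0.59, against 0 over all genes tested.

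Tspan3 was at 108 and 152 CPM in NHD13 and 232 and 215 CPM in WT (-0.78 ± 0.18, edgeR adjusted p 0.0803). Tspan4, a gene of migrasomes, was at 169.5 and 223 CPM in NHD13 and 311 and 300.2 CPM in WT (-0.64 ± 0.15, edgeR adjusted p 0.0837). Tspan3 and Tspan4 were not called in the fit of all 4 libraries but were called lower with no filter on low counts, by DESeq2 and without NHD13 library 2. Upk1b, a bladder lining gene, and Tspan7 stood high in WT library 1. Upk1b was at 0.582 and 0.939 CPM in NHD13 and 11.7 and 1.81 CPM in WT, and Tspan7 at 0.495 and 0.551 CPM in NHD13 and 4.30 and 1.18 CPM in WT. Neither was called (edgeR adjusted p 0.128 and 0.131). The 7 stroma and endothelium markers summed to 84.3 and 112 CPM in NHD13 and 132 and 93.5 CPM in WT, and Col3a1 was at 0 in NHD13 library 1. Pecam1 was the largest part in every library, at 81.1 and 97.8 CPM in NHD13 and 67.5 and 78.4 CPM in WT. In WT library 1 Sparc stood at 35.6 CPM and Col1a1 at 12.8 CPM, against 0.602 and 0.848 CPM in WT library 2. Kdr was at 1.95 and 6.53 CPM in NHD13 libraries 1 and 2 and 11.6 and 13.1 CPM in WT libraries 1 and 2. Of the 7 markers, 3 (Kdr, Cdh5 and Col3a1) were below WT in both NHD13 libraries and 1, Pecam1, was above. Whether other cells contributed to the Upk1b and Tspan7 values was not tested.

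**Figure D3:**
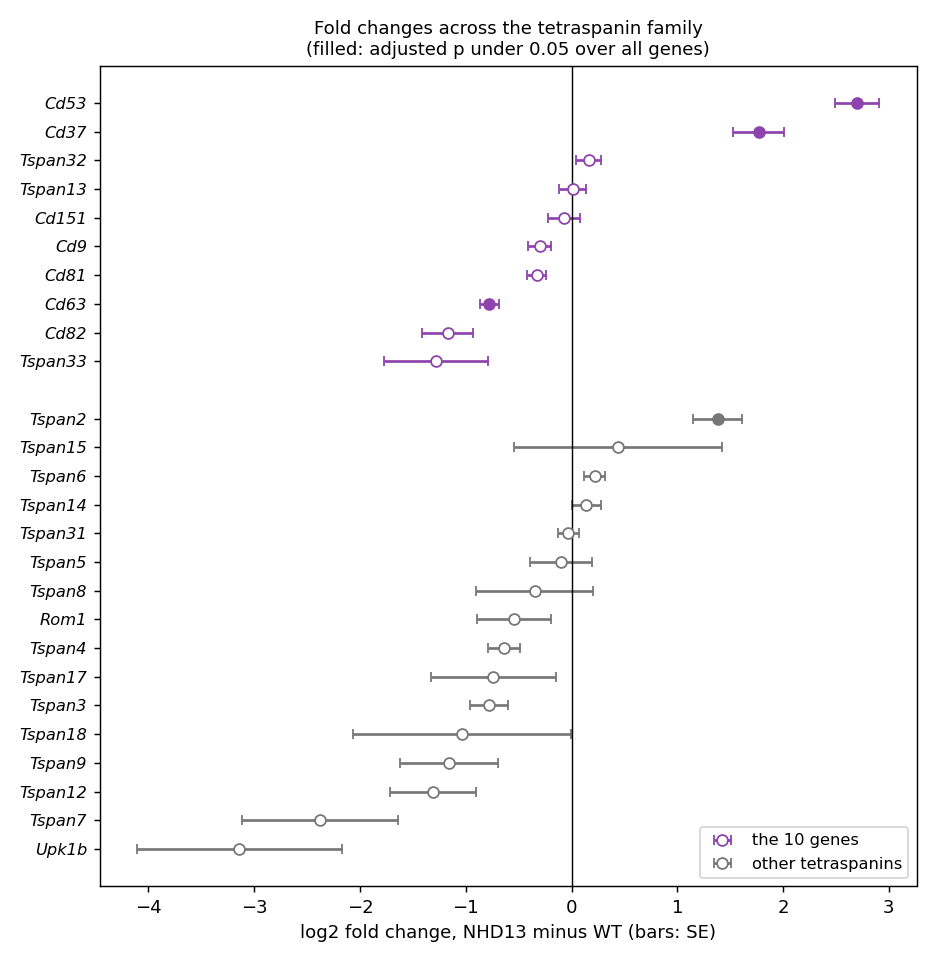
Log2 fold changes (NHD13 minus WT, x axis) with SE bars for the 10 genes and for the 16 other tetraspanins that passed the filter on low counts; filled points had an edgeR adjusted p under 0.05 over all genes. Cd53 and Cd37 lie at 2.70 and 1.77, Tspan2 at 1.38 and Cd63 at -0.78.

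Genes of proteins that tetraspanins bind were examined as a list of 20, all in the tables, of which 19 passed the filter. Of the 19, 1 was called, against 4.28 percent of all genes tested, so nothing is read from that count. An unadjusted edgeR p under 0.05 was found for 4, against 3983 of the 14853 genes tested. Itga4, the alpha subunit of the integrin VLA-4 that holds stem cells in marrow, was the 1 gene called, higher in NHD13 at 328 and 347 CPM against 108 and 119 CPM in WT (log2 fold change 1.57 ± 0.10, edgeR adjusted p 0.00746). With WT library 1 or WT library 2 left out, edgeR called neither Itga4 nor any other gene, while DESeq2 called Itga4 in both fits. The median of the 19 log2 fold changes was -0.14.

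Among partner genes that edgeR did not call on all 4 libraries, Itgb3, the beta subunit of the platelet integrin, was at 25.0 and 45.0 CPM in NHD13 and 74.2 and 70.6 CPM in WT (-1.05 ± 0.29, edgeR adjusted p 0.106). Cd36, a scavenger receptor, was at 1.92 and 2.98 CPM in NHD13 and 6.32 and 6.73 CPM in WT (-1.41 ± 0.34, edgeR adjusted p 0.0850). DESeq2 called both lower, and edgeR called Itgb3 lower without NHD13 library 2. The complement receptor gene Cr2 had a log2 fold change of -1.14 ± 0.42 (edgeR adjusted p 0.171) and the integrin gene Itga3 of -1.22 ± 0.58 (edgeR adjusted p 0.255). Adam10, the protease that Tspan33 and Tspan14 accompany, was at 419 and 381 CPM in NHD13 and 343 and 374 CPM in WT (0.16 ± 0.10, edgeR adjusted p 0.362). Tspan14, named for that role after its values were seen, was at 365 and 346 CPM in NHD13 and 285 and 361 CPM in WT, so its groups overlapped.

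The endosome and exosome route that Cd63 follows was covered by 12 genes, all of which passed the filter. Of the 12, 1 was called, against 4.28 percent of all genes tested, so nothing is read from that count. An unadjusted edgeR p under 0.05 was found for 3, against 3983 of the 14853 genes tested. Rab27b, a small GTPase of exosome and granule release, was called lower in NHD13 at 21.0 and 30.6 CPM against 74.9 and 74.5 CPM in WT (log2 fold change -1.53 ± 0.20, edgeR adjusted p 0.0335). With WT library 1 or WT library 2 left out edgeR did not call it. Sdcbp, which encodes the exosome adaptor syntenin, had -0.53 ± 0.10 (edgeR adjusted p 0.0553). It was called lower by DESeq2, with no filter and with the filter of 1 CPM. Stam (0.31 ± 0.12, edgeR adjusted p 0.181), Lamp1 (0.30 ± 0.14, 0.241) and Lamp2 (-0.16 ± 0.15, 0.539) were not called, and the median over the 12 genes was 0.06.

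With each library left out in turn, Cd53 kept a log2 fold change between 2.45 and 2.92, Cd37 between 1.41 and 2.07, Cd63 between -0.84 and -0.71 and Cd82 between -1.54 and -0.86. Cd151 and Tspan13 changed sign, between -0.17 and 0.04 and between -0.16 and 0.17. In both fits that left out a WT library edgeR called no gene, Cd53, Cd37 and Cd63 included (2332 and 2605 genes had an unadjusted p under 0.05), while DESeq2 called those 3 genes in each. Without NHD13 library 1 edgeR called Cd53 and Cd37 but not Cd63.

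**Figure D4:**
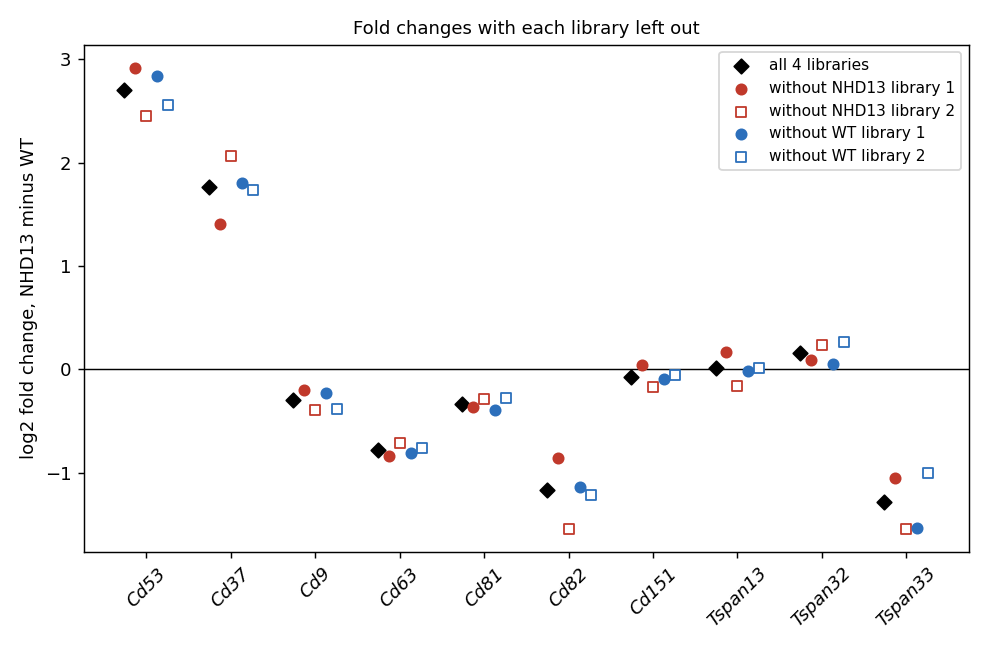
Log2 fold changes (NHD13 minus WT, y axis) of the 10 genes with all 4 libraries (black diamonds) and with each library left out. Cd53 stays between 2.45 and 2.92 and Cd37 between 1.41 and 2.07, while Cd151 and Tspan13 lie on both sides of 0.

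The genes with the pattern most like that of Cd53 over the 4 libraries were sought among 11435 other genes. Those compared had an average log2 CPM of 1 or more, and predicted and clone-based names (Gm, Rik, LOC or numbers) were left out. The distance is Euclidean, between log2 CPM values centred on their mean. Nearest to Cd53 was Mir675, a microRNA precursor within the H19 gene (distance 0.133). Next came the adenosine receptor gene Adora2b (0.175) and the prostacyclin receptor gene Ptgir (0.212). Mir675 was at 3.64 and 5.53 CPM in NHD13 and 0.391 and 0.301 CPM in WT. Ptgir was at 4.45 and 7.65 CPM in NHD13 and 0.713 and 0.493 CPM in WT. The 0.5 CPM added before the log is larger than the WT values of Mir675 and near those of Ptgir, so their distances depend on it. Adora2b was at 16.1 and 22.5 CPM in NHD13 and 2.97 and 2.76 CPM in WT. For Cd37 the nearest was Ifi27l2a, an interferon-inducible gene (0.146). Next came the C-type lectin gene Clec4d (0.164) and Ncf1, which encodes a subunit of the NADPH oxidase (0.174). Ncf1 was at 32.3 and 17.6 CPM in NHD13 and 6.51 and 6.84 CPM in WT. Cd53 and Cd37 lay 1.24 apart by the same measure, so each had other genes closer to it. A likeness over 4 libraries is a description of these libraries only.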

How the data were processed

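Blood stem cells were sorted from NHD13 and WT marrow. Per the labels' protocols, complementary DNA was made with the SMARTer Ultra Low kit, and both ends of fragments were read on an Illumina HiSeq. The submitters' processing notes name Bowtie 0.12.2 and build mm9. The counting program, its use of strand and its treatment of reads with several alignments were not given in the sources used here. The deposited values are raw counts per RefSeq transcript (33018 transcripts), with no normalisation, so reads shared by transcripts or overlapping genes may be counted in each. Each symbol was represented by its transcript with the highest total.

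All genes were fitted together in edgeR 4.0.16 (R 4.3.3) with its default filter on low counts, TMM scaling and the robust quasi-likelihood test, with Benjamini-Hochberg adjustment. SEs are the log2 fold change divided by the square root of F. DESeq2 1.42.0, limma-voom (limma 3.58.1), other scalings, no filter or at least 1 CPM in both libraries of either group, the replicate number as a block, left-out libraries and summed transcripts were alternatives; crossed replicate numbers and DESeq2 with left-out libraries were added after the data were seen. The genes and lists were chosen with earlier results of these data known. Named genes were the 10 tetraspanins, every called gene and the 4 next smallest p of each list, Adam10, and the 3 nearest patterns to Cd53 and to Cd37. Cell type markers are given as summed lists, with single markers that were at 0, were called or stood apart in a library chosen after their values were seen. The level of 1 B cell marker is not reported here. Distances in pattern used log2 of CPM plus 0.5.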

Additional observations from a re-analysis of the deposited data

How the results depend on the processing

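With other scalings, filters, tools, transcript sums or blocks on all 4 libraries, log2 fold changes ranged from 2.68 to 2.69 for Cd53, 1.72 to 1.77 for Cd37, -0.79 to -0.78 for Cd63 and -1.21 to -1.17 for Cd82. The number of genes called over all genes was 636 and moved to 1138 with no filter, 1066 with a filter at 1 CPM, 402 with summed transcripts, 2606 by DESeq2 and 107 with the replicate block. It ranged from 0 to 990 with a library left out in edgeR (0 without WT library 1 or WT library 2, where 2332 and 2605 had an unadjusted p under 0.05). In DESeq2 it was 1017 without WT library 1, 1131 without WT library 2, 1332 without NHD13 library 1 and 2442 without NHD13 library 2. Among other tetraspanins 1 gene was called, against 3 with no filter, 6 by DESeq2 and 0 with library totals, the replicate block or the crossed block (6, 4 and 7 at an unadjusted p under 0.05), and 0 to 4 in edgeR or 1 to 6 in DESeq2 with a library left out. For partner genes the count of 1 moved to 3 by DESeq2, and to 0 to 2 in edgeR or 1 to 6 in DESeq2 with a library left out. For endosome and exosome genes the count of 1 moved to 2 with no filter, the 1 CPM filter or DESeq2, to 0 with the replicate block (2 at an unadjusted p under 0.05), and to 0 to 1 in edgeR or 1 to 2 in DESeq2 with a library left out. The causes of these shifts were not tested.

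The labels do not say that a replicate number pairs libraries, and deviations of libraries with the same number correlated at -0.125 over 14853 genes. With the replicate block edgeR called Cd53 of the 10 genes, while the block of crossed numbers gave Cd53, Cd37 and Cd63 and 647 genes in all. With 2 libraries per group the spread is estimated on few degrees of freedom, and Tspan33 rests on 19 to 70 counts per library.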
